A study of Mus musculus with 4 samples.

Results

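RNA-seq values of 10 genes were examined in basal and luminal cells of the developing mouse prostate: the epithelial-to-mesenchymal transition (EMT) factors *Snai1*, *Snai2*, *Zeb1*, *Zeb2*, *Twist1* and *Twist2*, the classical cadherins *Cdh1*, *Cdh2* and *Cdh3*, and the intermediate filament gene *Vim*. They were taken by symbol from the 49671 genes of the deposited table, and all 10 were among the 18737 genes that passed the filter on low values. Both cell types came from the last 100 µm of the ventral lobe tips of untreated CD-1 mice labelled P10 to P13, with tissue of many mice pooled. Cells positive for CD45, CD31 or CD140a were excluded by FACS, and EpCAM high cells were sorted as basal (CD49f high) or luminal (CD49f low). The 2 basal libraries carry replicate numbers 1 and 3 and the 2 luminal libraries carry numbers 3 and 2. The labels do not say that libraries of a group came from separate animals, so p-values measure the spread between these libraries, which may be technical.

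Classical cadherins join neighbouring epithelial cells through adherens junctions, where catenins tie them to actin. *Cdh1* encodes E-cadherin, the cadherin of most epithelia, *Cdh3* encodes P-cadherin, which is typical of basal layers, and *Cdh2* encodes N-cadherin of neural and mesenchymal cells. The SNAI and ZEB zinc finger proteins and the TWIST bHLH proteins are known for repressing epithelial genes, *Cdh1* among them, and for being active in mesenchymal cells, and *Snai2* is also expressed in basal cells of several glands. *Vim* encodes vimentin, a filament protein of fibroblasts, endothelial cells and leukocytes.

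The miR-200 family is known for repressing the ZEB genes after transcription, and its sequences are shown because ZEB RNA was present in both epithelial fractions. The mature forms (RefSeq, GRCm38.p6) fall into 2 seed groups, with miR-200c-3p and miR-429-3p sharing the seed of miR-200b-3p and miR-141-3p sharing that of miR-200a-3p. Capitals mark the seed, bases 2 to 8.
mmu-miR-200b-3p: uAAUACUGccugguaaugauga
mmu-miR-200a-3p: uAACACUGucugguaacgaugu
The matching sites, CAGTATT and CAGTGTT, were counted on the sense strand in the longest annotated 3′ UTR of each gene. *Zeb1* and *Zeb2* each held 9 sites, a number reached by 3 of 21037 genes (0.0143%), and *Snai2* held 2 and *Snai1* held 1. No match was found in the 3′ UTRs of *Twist1*, *Twist2*, *Cdh1*, *Cdh2*, *Cdh3* or *Vim*, and 25.7% of all genes held at least 1. Example sites are shown from the *Zeb2* 3′ UTR, on the minus strand of GRCm38, with the site in capitals.
*Zeb2* site at chr2:44988350-44988372: attttgtaCAGTGTTaaggccta
*Zeb2* site at chr2:44988166-44988188: ccatacatCAGTATTttattatt
*Zeb2* site at chr2:44987777-44987799: accagcttCAGTGTTaagctcac
*Zeb2* site at chr2:44987654-44987676: aattttgtCAGTATTacaccaaa
The libraries do not measure mature miRNAs, and the miR-200 gene rows held at most 1 read in any library, so no level is given for them.

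Values are gene counts that the authors scaled to a common total of aligned reads. The value of 1 read, found from the spacing of low values, was 6.26 and 6.50 in the basal libraries 1 and 3, and 19.4 and 31.2 in the luminal libraries 3 and 2. Recovered reads on genes ranged from 3079270 to 3194311 in the basal libraries and from 643267 to 1036685 in the luminal ones. The sort was checked on marker genes. All 6 basal markers, among them *Itga6*, which encodes the sorted antigen CD49f, were called higher in basal cells by limma at an adjusted p under 0.05, and *Krt5* in luminal cells was at 0.496% of its basal average. Of 7 luminal markers, limma called *Krt19* higher in luminal cells, and edgeR called *Krt8*, *Krt18* and *Krt19*. Genes of fibroblasts were abundant in all 4 libraries despite the sort. The 11 listed fibroblast genes were all above 0 in every library and summed to 107217 and 216268 in basal replicates 1 and 3, and to 85327 and 206298 in luminal replicates 3 and 2. *Pdgfra*, which encodes the CD140a antigen used to exclude cells, was at 3307 and 4144 in basal and at 2575 and 8383 in luminal libraries. Single fibroblast genes differed from the sum in both directions. *Dcn*, a matrix proteoglycan gene, was at 45830 and 47724 in basal and at 5770 and 20256 in luminal libraries, with an adjusted p of 0.143 by limma and 0.0395 by edgeR, and *Thy1* was at 745 and 1221 in basal and at 503 and 436 in luminal libraries. *Dpt* was at 63 and 136 in basal and at 58 and 966 in luminal libraries, and *Postn* was at 4365 and 4073 in basal and at 12022 and 3958 in luminal libraries, with overlap in both.

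**Figure D1:**
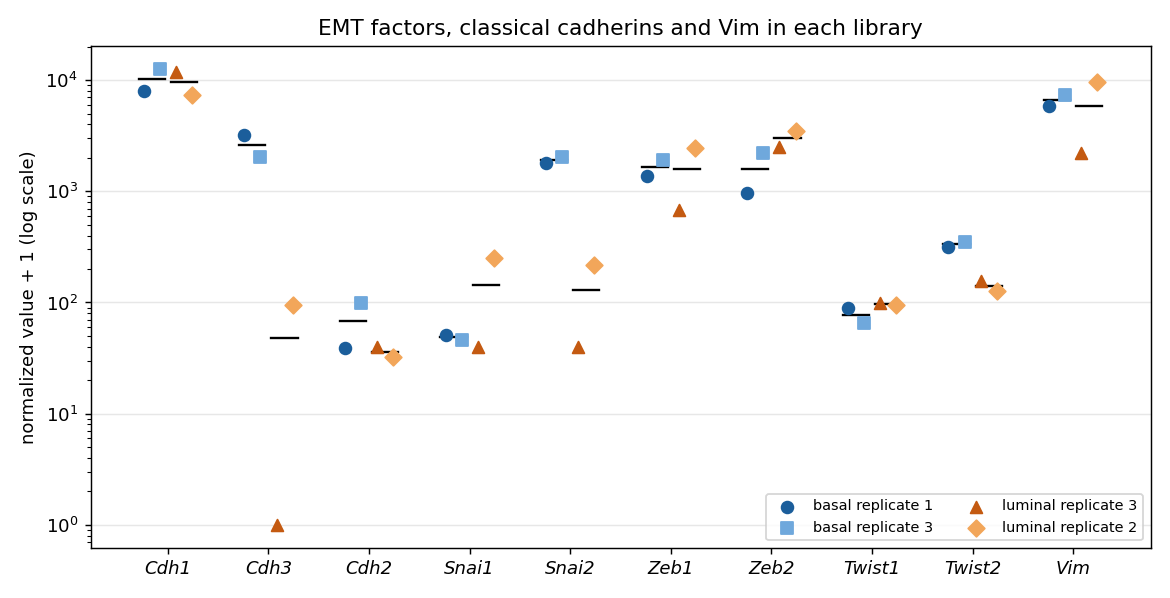
Normalized value plus 1 on a log axis for each of the 10 genes in each library (points), with the mean of each cell type as a black line. *Cdh3* and *Snai2* stood far apart between cell types, with luminal replicate 3 at 0 for *Cdh3*, whereas *Cdh1*, *Zeb1* and *Vim* overlapped.

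Among the members, *Snai2* and *Cdh3* had the largest differences, both towards basal cells. limma called 0 of the 10 at an adjusted p under 0.05, where 0.694% of all tested genes were called, and 3 had an unadjusted p under 0.05 (*Snai2*, *Cdh3* and *Twist2*), where 18.5% of all genes did. edgeR's quasi-likelihood test on recovered reads called 2, *Snai2* and *Cdh3*, where it called 5.07% of all genes, and DESeq2 called the same 2 against a background of 4.37%. Both were higher in basal cells, the direction of the calls for 0.438% of all genes by limma, 2.71% by edgeR and 2.22% by DESeq2, against 0.256%, 2.36% and 2.15% higher in luminal cells. By the ratio of group averages, 3 members were at least 2-fold higher in basal cells (*Snai2*, *Twist2* and *Cdh3*), against 16.3% of all genes. *Cdh3* passed the filter through its basal libraries alone, so that its direction in these calls and in each basal count was set by the filter. The 2-fold count was 5 without luminal replicate 2. *Snai1* was at least 2-fold higher in luminal cells by this ratio, against 18.3% of all genes, and this count was 0 without luminal replicate 2 and 2 without basal replicate 3 or luminal replicate 3. The groups did not overlap for 3 members higher in basal cells, against 27.3% of all genes, and for 2 higher in luminal cells (*Zeb2* and *Twist1*), against 23.6%. The luminal values of *Zeb2* were not whole numbers of reads, as described below, which limits this count. In all, 5 members had groups that did not overlap and 5 had groups that did, beside 50.9% of all genes without overlap. The median log2 fold change of the members, luminal minus basal, was -0.42, beside -0.10 over all genes tested.

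*Cdh1* (ENSMUSG00000000303, chr8:106603351-106670246, plus strand, GRCm38) had the highest level per kb of exon of the classical cadherins in every library. Its normalized value was 7997 and 12647 in basal replicates 1 and 3, and 11811 and 7386 in luminal replicates 3 and 2. The 2 groups overlapped, with the highest and the second highest value in different cell types. The averages were 10322 ± 3288 (SD, n = 2) in basal and 9598.5 ± 3129 (SD, n = 2) in luminal cells. Luminal minus basal, the log2 fold change was -0.11 with a standard error of 0.35, and its limma adjusted p was 0.892. This sign turned under quantile normalization (0.31), under rescaling to nuclear protein-coding genes (0.20), without basal replicate 3 (0.22) and without luminal replicate 2 (0.23), so no direction is given. Relative to *Epcam*, an epithelial adhesion gene whose protein was used in the sort, *Cdh1* per kb of exon was 1.63 and 1.65 times as high in the basal libraries and 0.624 and 0.575 times in the luminal ones. *Epcam* itself was 2355 and 3683 in basal and 9081 and 6170 in luminal libraries, with an edgeR adjusted p of 0.0454 and a limma adjusted p of 0.0985.

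*Cdh3* (ENSMUSG00000061048, chr8:106510891-106557297, plus strand), which lies beside *Cdh1* on chromosome 8, was a gene of the basal libraries. It was at 3194 and 2040 in basal replicates 1 and 3, and at 0 and 93 in luminal replicates 3 and 2. Both luminal libraries were below both basal ones, and they held 0 and 3 reads against 510 and 314. A count of 0 in luminal replicate 3 allows a value of up to 58.1. The basal average of 2617 ± 816 (SD, n = 2) was 56.3 times the luminal average of 46.5 ± 65.8 (SD, n = 2). The rate of reads was 73.5 times higher in basal cells, with an exact 95% interval of 25.1 to 357 that covers counting error only. The fitted log2 fold change was -8.04 with a standard error of 2.08, and depends on the pseudocount of 1 because luminal values are near 0. It was -4.76 without luminal replicate 3 and -11.32 without luminal replicate 2. Its adjusted p was 0.114 by limma, 0.000426 by edgeR and 5.2e-08 by DESeq2. In these bulk samples fewer cells expressing a gene and less RNA per cell cannot be told apart. The luminal average of *Cdh3* was 1.78% of the basal one, beside 0.496% for *Krt5* and 1.26% for *Trp63*, which encodes the basal cell regulator p63.

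*Cdh2* (ENSMUSG00000024304, chr18:16588877-16809246, minus strand) was close to the limit of detection. Its values were 38 and 97 in basal replicates 1 and 3 and 39 and 31 in luminal replicates 3 and 2. These overlapped and rested on 6, 15, 2 and 1 reads in this order. A log2 fold change of -0.79 was fitted, with a standard error of 0.97 and a limma adjusted p of 0.680. Per kb of exon, *Cdh1* exceeded *Cdh2* 371-fold and 230-fold in the basal libraries, and 534-fold and 420-fold in the luminal libraries.

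Taking the cadherins as shares of their sum per kb of exon removes the scaling between libraries. *Cdh1* made up 70.5% and 85.3% of the classical cadherin level in basal replicates 1 and 3, and 99.8% and 98.5% in luminal replicates 3 and 2. The basal libraries were both lower and lay further apart from each other than the luminal ones. The mean share was 77.9% ± 10.5 (SD, n = 2) in basal and 99.1% ± 0.948 (SD, n = 2) in luminal cells. The exact two-sided permutation p was 0.333, the smallest that 2 against 2 libraries allow. As a share of recovered reads, *Cdh1* had 95% Wilson intervals of 69.1% to 73.3% and 84.0% to 86.9% in the basal libraries, and 98.8% to 99.9% and 95.8% to 99.4% in the luminal libraries. *Cdh3* made up 29.4% and 14.4% per kb in the basal libraries, and 0% and 1.29% in the luminal libraries. *Cdh2* did not exceed 0.371% in any library, so the *Cdh1* share mirrored that of *Cdh3*. The share is therefore not a result apart from the difference in *Cdh3*, and the values of *Cdh1* itself overlapped.

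**Figure D2:**
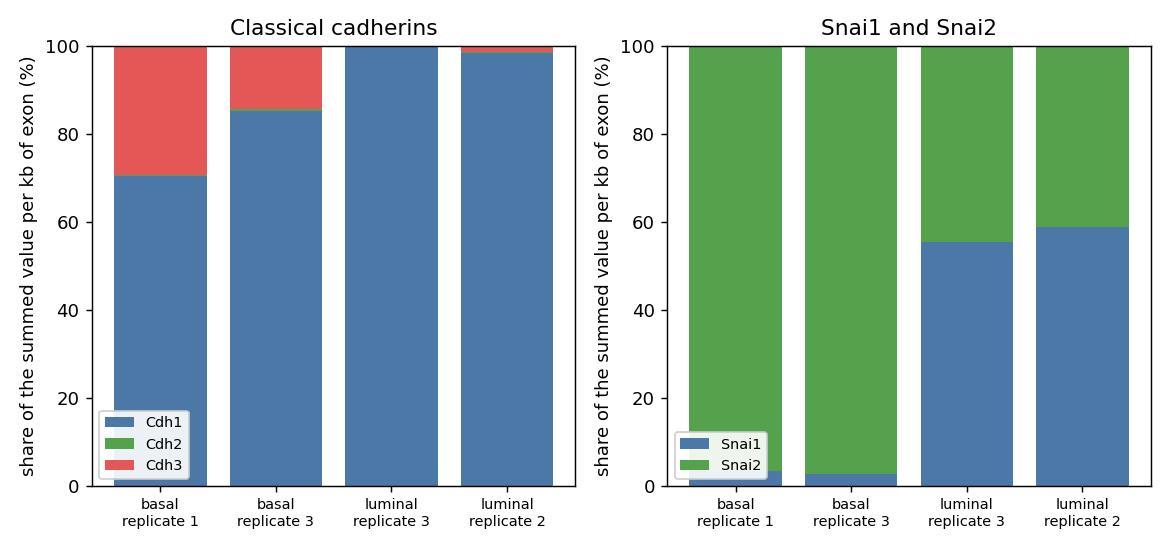
Stacked bars give the share of each gene in the summed normalized value per kb of exon (%), for the classical cadherins (left) and for *Snai1* and *Snai2* (right), with 1 bar per library. *Cdh3* took 29.4% and 14.4% in the basal libraries and at most 1.29% in the luminal ones, and *Snai2* took over 96% in the basal libraries against 44.5% and 41.3% in the luminal ones, which rest on 4 and 15 reads.

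*Snai2* (ENSMUSG00000022676, chr16:14705852-14709385, plus strand), which encodes Slug, had the largest difference among the 6 EMT factors. It was at 1791 and 2046 in basal replicates 1 and 3, and at 39 and 218 in luminal replicates 3 and 2. The basal libraries were close to each other and far above both luminal ones, which held 2 and 7 reads against 286 and 315. The basal average of 1918.5 ± 180 (SD, n = 2) was 14.9 times the luminal average of 128.5 ± 127 (SD, n = 2). The rate of reads was 17.9 times higher in basal cells, with an exact 95% interval of 9.36 to 39.3. The log2 fold change was -4.35 with a standard error of 0.82, and it was -3.13 without luminal replicate 3 and -5.58 without luminal replicate 2. Its adjusted p was 0.0702 by limma, 0.00131 by edgeR and 1.5e-06 by DESeq2. The luminal average was 6.70% of the basal one, above the 0.496% of *Krt5* and the 1.26% of *Trp63*; the part of basal RNA in the luminal *Snai2* value was not tested.

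*Snai1* (ENSMUSG00000042821, chr2:167538195-167542814, plus strand), which encodes Snail, was low throughout. It was at 50 and 45 in basal replicates 1 and 3, and at 39 and 249 in luminal replicates 3 and 2. The luminal libraries were the lowest and the highest of all 4, with 2 and 8 reads, so the groups overlapped. The ratio of averages of 3.03 towards luminal cells came from luminal replicate 2. limma gave a log2 fold change of 1.05 with a standard error of 1.13 and a limma adjusted p of 0.635, and it became -0.28 without luminal replicate 2. *Snai2* made up 96.6% and 97.3% of the *Snai1* and *Snai2* level per kb in the basal libraries, and 44.5% and 41.3% in the luminal libraries. The luminal shares rest on 4 and 15 reads in all.

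*Zeb1* (ENSMUSG00000024238, chr18:5591860-5775467, plus strand) was present in both cell types, with averages that differed by less than their spread. It was at 1378 and 1903 in basal replicates 1 and 3, and at 678 and 2462 in luminal replicates 3 and 2. The luminal libraries were again the lowest and the highest, and the groups overlapped. The averages were 1640.5 ± 371 (SD, n = 2) and 1570 ± 1261 (SD, n = 2). The fitted log2 fold change was -0.33 with a standard error of 0.63 and a limma adjusted p of 0.797, and it became 0.60 without luminal replicate 3. *Zeb1* overlaps exons of *Gm10125* on the opposite strand, which was at most at 45.

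*Zeb2* (ENSMUSG00000026872, chr2:44983632-45117395, minus strand) was listed at 971 and 2202 in basal replicates 1 and 3, and at 2509 and 3507 in luminal replicates 3 and 2. Both luminal values were above both basal ones, but basal replicate 3 lay nearer to luminal replicate 3 than to basal replicate 1. The ratio of averages was 1.90, with a log2 fold change of 1.02, a standard error of 0.44 and a limma adjusted p of 0.303 (edgeR, 0.239). The luminal values corresponded to 129.582 and 112.539 reads, which are not whole numbers, while the other 9 members were whole in every library. *Zeb2* was 1 of 550 genes with such values. Over these genes, values of up to 20 reads in the luminal replicate 3 column were whole in the spacing of luminal replicate 2 for 228 of 229, and those in the basal replicate 1 column were whole in the spacing of basal replicate 3 for 123 of 123. The basal replicate 3 column had the most such values and matched no other library, with 12 of 309 whole in the spacing of basal replicate 1. In the luminal replicate 2 column 208 of 237 were whole in that spacing. Whether such values were taken from other columns, and what the luminal values of *Zeb2* hold, was not determined. It also shares exonic sequence with the antisense gene *Zeb2os*, which was at most at 58, and with the miRNA gene *Mir5129* on the same strand, which was at 38 and 39 in the basal libraries and at 0 and 125 in luminal replicates 3 and 2. *Zeb1* made up 73.4% and 62.7% of the ZEB level per kb in basal replicates 1 and 3, and 34.4% and 57.7% in luminal replicates 3 and 2, with the same limit on the luminal shares.

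*Twist2* (ENSMUSG00000007805, chr1:91801461-91848028, plus strand) was higher in both basal libraries. It was at 313 and 351 in basal replicates 1 and 3, and at 155 and 125 in luminal replicates 3 and 2, from 50, 54, 8 and 4 reads. The groups did not overlap, and the basal average of 332 ± 26.9 (SD, n = 2) was 2.37 times the luminal average of 140 ± 21.2 (SD, n = 2). The log2 fold change was -1.25 with a standard error of 0.49. Its adjusted p was 0.264 by limma and 0.300 by edgeR, so the difference did not pass either test. *Twist2* overlaps exons of the antisense gene *Gm29100*, which was at 219 and 273 in the basal and 136 and 125 in the luminal libraries. Whether the counting used strand is not given in the sources used here, so reads of the 2 genes cannot be told apart.

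*Twist1* (ENSMUSG00000035799, chr12:33957671-33959829, plus strand) was at 88 and 65 in basal replicates 1 and 3, and at 97 and 93 in luminal replicates 3 and 2. The luminal values were slightly above the basal ones, but they rest on 5 and 3 reads. The log2 fold change was 0.32 with a standard error of 0.74 and a limma adjusted p of 0.833. Compared per kb of exon, the 6 factors had no common order across libraries. In the basal libraries *Snai2* was first at 886 and 1012, ahead of *Zeb1* at 134 and 185. In luminal replicate 3 *Zeb2* was first at 126, with *Snai2* last at 19.3, and in luminal replicate 2 *Zeb1* was first at 240, followed by *Zeb2* at 176. With 2 libraries per group, the order of *Zeb1* and *Zeb2* in luminal cells was within their spread. Both luminal values of *Zeb2* were not whole numbers of reads, and what they hold was not determined, so the ranks of *Zeb2* there have the same limit.

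*Vim* (ENSMUSG00000026728, chr2:13573927-13582826, plus strand) was abundant in the libraries of both cell types. It was at 5856 and 7392 in basal replicates 1 and 3, and at 2188 and 9598 in luminal replicates 3 and 2. The luminal libraries were the lowest and the highest, 4.39-fold apart. The averages were 6624 ± 1086 (SD, n = 2) in basal and 5893 ± 5240 (SD, n = 2) in luminal cells. The log2 fold change was -0.52 with a standard error of 0.69 and a limma adjusted p of 0.700, and it became 0.54 without luminal replicate 3. Per kb of exon, *Cdh1* was 1.42 and 1.77 times *Vim* in the basal libraries, 5.60 times in luminal replicate 3 and 0.798 times in luminal replicate 2.

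Marker genes of other cell types varied from library to library in part as *Vim* and *Zeb1* did. The 6 smooth muscle genes summed to 30687 and 53240 in basal replicates 1 and 3, and to 9984 and 61015 in luminal replicates 3 and 2. One of them, *Des*, had values on another spacing, like *Zeb2*. Like *Vim* and *Zeb1*, the sum was lowest in luminal replicate 3 and highest in luminal replicate 2. The fibroblast sum was also lowest in luminal replicate 3, and highest in basal replicate 3. *Vim* equalled 5.46%, 3.42%, 2.56% and 4.65% of the fibroblast sum in basal 1, basal 3, luminal 3 and luminal 2. Per kb of exon, *Zeb1* was 0.109, 0.119, 0.143 and 0.119 times *Vim* in the same order, a narrow range beside the 3.63-fold range of *Zeb1* itself. *Snai2* was 0.718 and 0.650 times *Vim* in the basal libraries, and 0.0418 and 0.0533 times in the luminal ones. The 6 endothelial genes summed to between 600 and 1745, with *Cdh5*, the endothelial cadherin, at 0 in luminal replicate 3. The 7 immune genes summed to 3031 and 1753 in basal replicates 1 and 3 and to 813 and 2087 in luminal replicates 3 and 2, most of it from *Cd3e*. *Ptprc*, which encodes the leukocyte antigen CD45 and did not pass the filter, was at 150 and 6 in the basal libraries and at 0 in both luminal ones, while *Cd68*, a macrophage gene, was at 288 and 182 in basal and at 136 and 156 in luminal libraries. The part of these cell types in the values of *Vim*, *Zeb1*, *Zeb2* and *Twist2* was not tested.

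**Figure D3:**
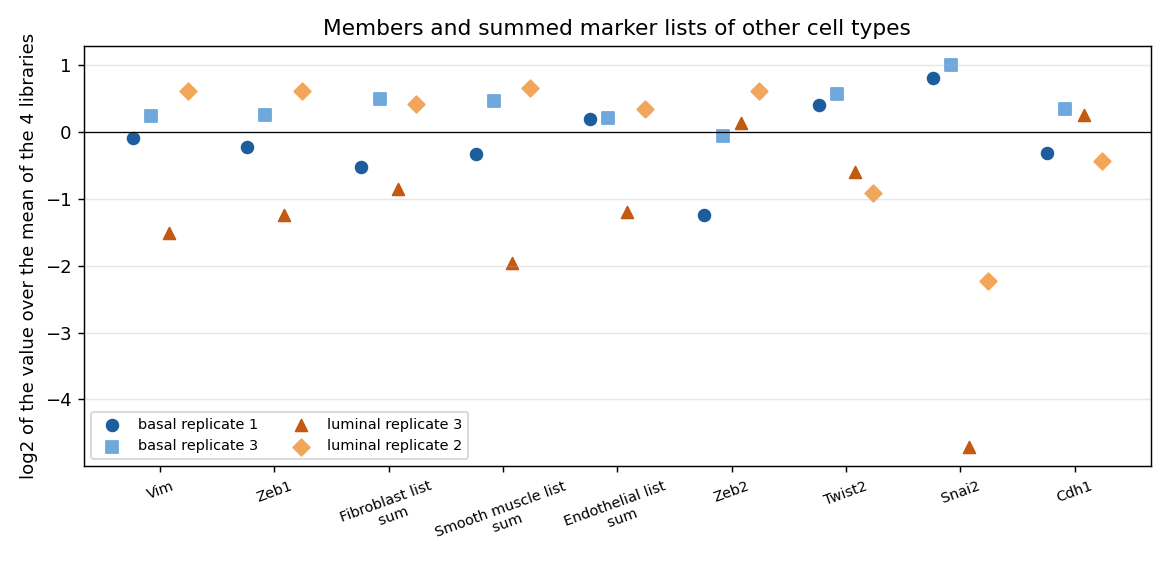
Points give the log2 of each library's value over the mean of the 4 libraries, for 6 members and for the summed marker genes of fibroblasts, smooth muscle and endothelium. *Vim*, *Zeb1* and the smooth muscle sum were lowest in luminal replicate 3 and highest in luminal replicate 2, while *Snai2* was low in both luminal libraries.

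Of 14 listed partners of the cadherins at the adherens junction 12 passed the filter. Of these, 9 stayed within 2-fold, 2 were at least 2-fold higher in basal (16.3% of all genes) and 1 in luminal cells (18.3%), with a median log2 fold change of -0.36 beside -0.10 over all genes. *Ctnnb1*, which encodes β-catenin, was at 13058 and 11913 in basal and at 7319 and 8320 in luminal libraries, with a limma adjusted p of 0.189. *Nectin1*, an adhesion receptor of the same junction, was the 1 gene of the list called by limma, which called 0.694% of all genes. It was at 8367 and 4859 in basal and at 465 and 592 in luminal libraries, with a log2 fold change of -3.60, a standard error of 0.34 and a limma adjusted p of 0.0354. Its relative *Nectin4* was at 44 and 26 in basal and at 426 and 499 in luminal libraries, so these nectins pointed in opposite directions. *Nectin4* had a log2 fold change of 3.73 and an adjusted p of 0.0688 by limma and 0.00717 by edgeR. *Ctnnd2*, a δ-catenin, was at 157 and 344 in basal and at 39 and 93 in luminal libraries, with a limma adjusted p of 0.288.

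Of 20 other cadherin genes 8 passed the filter, 4 at least 2-fold higher in basal (16.3% of all genes) and 1 in luminal cells (18.3%). Of the former, *Cdh5* and *Cdh19* passed through their basal libraries alone, so the filter had a part in this count, and without luminal replicate 2 the genes past 2-fold in either direction numbered 9 in place of 5. limma (0.694% of all genes), edgeR (5.07%) and DESeq2 (4.37%) each called 0 of these cadherins. One, *Cdh13*, had an unadjusted limma p under 0.05. *Cdh13*, a cadherin without a cytoplasmic tail, was at 1647 and 1358 in basal and at 116 and 686 in luminal libraries, with a log2 fold change of -2.40 and a limma adjusted p of 0.217. *Cdh19*, a cadherin of Schwann cells, was at 225 and 227 in basal and at 0 and 62 in luminal libraries. *Cdh5* was at 257 and 247 in basal and at 0 and 249 in luminal libraries. *Cdh11*, a mesenchymal cadherin, was at 2662 and 4222 in basal and at 1433 and 3646 in luminal libraries, which overlapped.

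Of 12 listed regulators known to hold cells in an epithelial state 10 passed the filter, 4 at least 2-fold higher in luminal (18.3% of all genes) and 1 in basal cells (16.3%), with a median log2 fold change of 0.48. One of the 4, *Elf5*, passed through its luminal libraries alone. limma called 0 of them, with 3 at an unadjusted p under 0.05 (18.5% of all genes), and edgeR (5.07% of all genes) and DESeq2 (4.37%) called *Grhl1* and *Klf4*. *Grhl1*, a grainyhead factor, was at 651 and 572 in basal and at 2265 and 1870 in luminal libraries, with an adjusted p of 0.0637 by limma and 0.00803 by edgeR. *Esrp2*, an epithelial splicing regulator, was at 395 and 214 in basal and at 871 and 873 in luminal libraries, with a limma adjusted p of 0.119. *Klf4* went the other way, at 32321 and 18169 in basal and at 6022 and 12278 in luminal libraries, with an adjusted p of 0.169 by limma and 0.0479 by edgeR.

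Of 13 other EMT-associated transcription factors 11 passed, 3 at least 2-fold higher in basal (16.3% of all genes) and 2 in luminal cells (18.3%), with a median of -0.31. One of the latter, *Prrx1*, had values on another spacing, and without luminal replicate 3 the genes past 2-fold numbered 3 in place of 5. limma called 0, with 5 at an unadjusted p under 0.05 (18.5% of all genes), and edgeR (5.07%) and DESeq2 (4.37%) called *Foxq1* and *Sox4*. *Foxq1* was at 294 and 344 in basal and at 2110 and 1184 in luminal libraries, with an adjusted p of 0.0664 by limma and 0.00466 by edgeR. *Foxc1* was at 1434 and 1169 in basal and at 232 and 654 in luminal libraries, with a limma adjusted p of 0.179. *Hmga2* was at 726 and 84 in basal and at 19 and 187 in luminal libraries, which overlapped. *Sox4*, named here after its values were seen, was at 3783 and 3079 in basal and 1375 and 841 in luminal libraries with an edgeR adjusted p of 0.0198.

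All 13 listed partners of the SNAI and ZEB proteins and genes of their turnover passed the filter, and 11 stayed within 2-fold. The other 2 were higher in basal cells (16.3% of all genes) and 0 in luminal cells (18.3%), and the number past 2-fold was 1 without basal replicate 1 or luminal replicate 3. Their median log2 fold change was -0.51. limma called 0, with 6 at an unadjusted p under 0.05 (18.5% of all genes), and edgeR (5.07%) and DESeq2 (4.37%) called 1, *Ajuba*, which encodes a LIM protein that binds SNAI proteins. *Ajuba* was at 2073 and 669 in basal and at 116 and 31 in luminal libraries, with a log2 fold change of -4.27 and an adjusted p of 0.0705 by limma and 0.00514 by edgeR. *Rcor1*, a corepressor, was at 2467 and 1864 in basal and at 813 and 1122 in luminal libraries, with a limma adjusted p of 0.110. *Gsk3b*, a kinase that marks Snail for degradation, was at 6732 and 4911 in basal and at 3079 and 4051 in luminal libraries.

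All 15 listed genes that are typical of mesenchymal cells passed the filter, and 5 of them are also fibroblast or smooth muscle markers used above. Within 2-fold stayed 11, while 3 were at least 2-fold higher in basal (16.3% of all genes) and 1 in luminal cells (18.3%), with a median of -0.58. One of the 3, *S100a4*, passed the filter through its basal libraries alone. The 4 genes past 2-fold became 7 without basal replicate 3 and 11 without luminal replicate 2. limma called 0, with 4 at an unadjusted p under 0.05 (18.5% of all genes), and edgeR (5.07%) and DESeq2 (4.37%) called *Tnc* and *Fbn1*. *Tnc*, which encodes tenascin C, was at 3225 and 3703 in basal and at 813 and 1060 in luminal libraries, with an adjusted p of 0.0582 by limma and 0.00488 by edgeR. *Fbn1*, which encodes fibrillin 1, was at 2912 and 5547 in basal and at 10408 and 25014 in luminal libraries, with an adjusted p of 0.114 by limma and 0.0180 by edgeR. *Lgals1* was at 770 and 1033 in basal and at 232 and 561 in luminal libraries, with a limma adjusted p of 0.261.

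**Figure D4:**
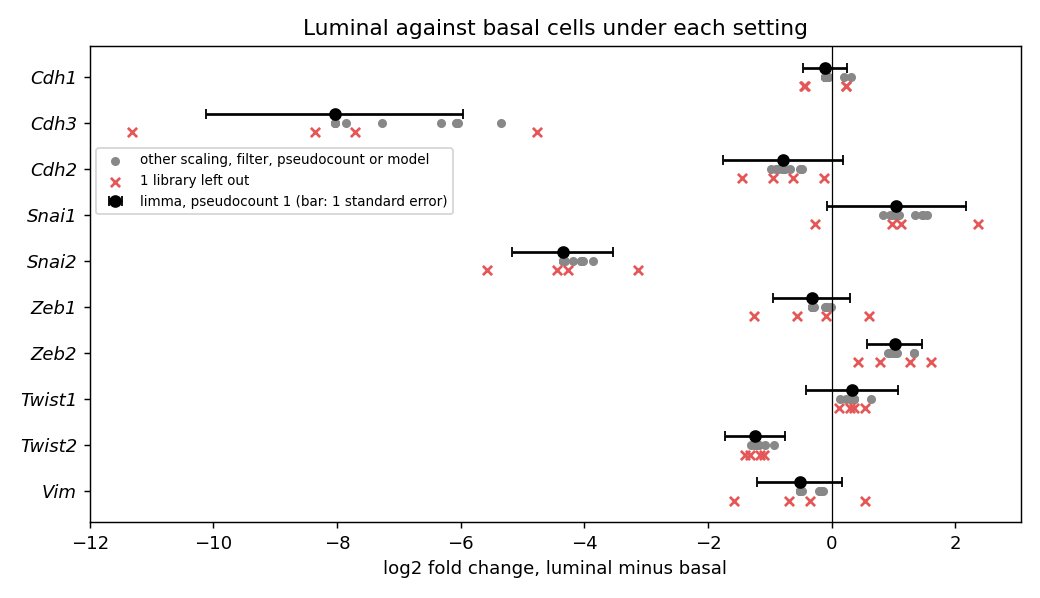
Log2 fold change, luminal minus basal, of each member by limma with a pseudocount of 1 (black, with 1 standard error), under other scalings, filters, pseudocounts and models (grey), and with 1 library left out (red crosses). *Snai2* and *Cdh3* were below 0 under every setting shown, with the direction of *Cdh3* set by the filter. *Cdh1* crossed 0 under some scalings and with 1 library of either cell type left out. *Snai1*, *Zeb1* and *Vim* crossed 0 when 1 luminal library was left out.

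Genes with the pattern most like each member over the 4 libraries were named among the 12544 genes with an average of at least 100, by the largest difference between centred log2 values in any library. For *Cdh3* they were *C3* (0.34), *Tns4* (0.79) and *Trim29* (0.88), and for *Snai2* they were *Sdk2* (0.28), *Pdk4* (0.58) and *Arl4c* (0.63). Nearer matches existed for members whose libraries differed less. *Zeb1* was most like *Ism1* (0.05), *Sh2b3* (0.10) and *F2r* (0.11), and *Vim* was most like *Prr11* (0.09), *Igsf10* (0.10) and *Dpysl3* (0.11). *Zeb2* was most like *Rps29* (0.11), *Ccl2* (0.11) and *Slc11a2* (0.12), with the limit on its luminal values given above. *Twist2* was most like *Tiparp* (0.08), *Siah2* (0.08) and *Foxred2* (0.09), and *Cdh1* was most like *Gm28289* (0.09), *Anxa7* (0.09) and *Baz1a* (0.10). *Snai1*, *Twist1* and *Cdh2* had averages under 100 and were not matched. Some matches rest on few reads, such as *Prr11* at 39 and 156 and *Tns4* at 0 and 31 in luminal replicates 3 and 2. There 1 read was worth 19.4 and 31.2. How close a match counting error or the number of genes compared would give was not tested.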

How the data were processed

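RNA-seq libraries (Ovation Solo) of sorted basal and luminal cells were used, 2 per cell type as labelled. The authors mapped reads with STAR to GRCm38, counted genes with HTSeq on an Ensembl annotation, scaled every library to the same number of aligned reads and deposited a rounded signal (normalized value) per gene and library. Picard is also named among the processing tools. Counting mode and strand are not given in the sources used here, and whether duplicates were removed was not determined. A total of 49326 of the 49671 gene identifiers matched a symbol in the GENCODE annotation of GRCm38. Columns mapped to no sample numbered 0.

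Whole reads were recovered from the spacing of low values (up to 60 reads, tolerance 0.6 in the normalized value). The share of low values that came out whole was 99.0% and 97.9% in basal replicates 1 and 3, and 98.6% and 98.3% in luminal replicates 3 and 2. A total of 550 genes had a value on another spacing. The filter required 10 in both libraries of a cell type and an average of 20 there. limma 3.58.1 (R 4.3.3) was fitted to log2(value + 1), with a trended prior, and p-values of 18737 genes were adjusted by Benjamini-Hochberg. Fold changes on this scale depend on the pseudocount for low genes, and those of genes near 0 in 1 group were larger than by edgeR, as for *Cdh3* (-8.04 against -6.06). edgeR 4.0.16 (quasi-likelihood, TMM; 950 genes called) and DESeq2 1.42.0 (819 genes called) were run on recovered reads. Scripts were tested on simulated data. Wilson and exact intervals and the floor of 3 reads cover counting error only.

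The members and gene lists were chosen with earlier results of these data known. All members were named, and from each list the genes called by limma and the 3 genes with the largest fold change at an average of 100 or more; other genes were named after their values were seen. Alternatives changed the filter, pseudocount, scaling, model and fold threshold and left out each library; leaving out genes on another spacing was added after seeing the data. miRNA sequences came from RefSeq (GRCm38.p6). UTR sequences came from GENCODE transcripts of GRCm38.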

Additional observations from a re-analysis of the deposited data

How the results depend on the processing

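With 130 genes called by limma in the reported fit, the alternatives called 0 without a filter (4455 at an unadjusted p under 0.05), 678 with the stricter filter, 531 and 668 with pseudocounts of 10 and 32, 381 under quantile normalization, 544 without the trended prior, 950 and 971 by edgeR with TMM and RLE, 819 by DESeq2, and 312 to 991 with 1 library left out (593 without basal replicate 1, 831 without basal replicate 3, 991 without luminal replicate 3 and 312 without luminal replicate 2). Of the members, 1 was called with the stricter filter, 2 with each of the pseudocounts of 10 and 32 and by edgeR with TMM or RLE and DESeq2, and 0 to 0 with 1 library left out, which leaves 1 library in that arm, assumed to vary like the other group. With no library left out, adjusted p-values of limma and the other models ranged from 1.5e-06 to 0.230 for *Snai2* and from 5.2e-08 to 0.290 for *Cdh3*. *Snai2* was higher in basal cells under every setting. The direction of *Cdh3* was also constant, but it was set by the filter, which *Cdh3* passed through its basal libraries alone. Members at least 2-fold higher in basal cells numbered 2 with the stricter filter (which drops *Cdh3*), under rescaling to nuclear protein-coding genes and at a fold of 4, and 3 to 5 with 1 library left out (5 without luminal replicate 2). Those higher in luminal cells numbered 2 under quantile normalization and under rescaling to nuclear protein-coding genes, 0 at a fold of 4, and 0 to 2 with 1 library left out (2 without basal replicate 3 or luminal replicate 3, 0 without luminal replicate 2). The sign of *Cdh1* turned to 0.31 under quantile normalization and 0.20 under nuclear rescaling. With 1 library left out, log2 fold changes ran from -0.45 to 0.23 for *Cdh1*, -0.28 to 2.37 for *Snai1*, -1.25 to 0.60 for *Zeb1*, -1.59 to 0.54 for *Vim*, -5.58 to -3.13 for *Snai2* and -11.32 to -4.76 for *Cdh3*. The causes were not tested.

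Counts past the fold threshold moved in the gene lists. For other cadherins (5 in the report) there were 14 without a filter, 3 with the stricter filter, 1 at a fold of 4 and 4 to 9 with 1 library left out (9 without luminal replicate 2). For epithelial-state regulators (5) and other EMT-associated factors (5) there was 1 each at a fold of 4, and 5 to 6 and 3 to 6 with 1 library left out (3 without luminal replicate 3). For SNAI and ZEB partners (2) there was 1 under quantile normalization, nuclear rescaling and a fold of 4, and 1 to 3 with 1 library left out (1 without basal replicate 1 or luminal replicate 3). For mesenchymal genes (4) there were 2 at a fold of 4 and 4 to 11 with 1 library left out (7 without basal replicate 3, 11 without luminal replicate 2). Rescaling to nuclear protein-coding genes shifted the median of all genes by 0.31 and raised the luminal share of genes past the fold threshold from 52.9% to 67.9%. The difference in the *Cdh1* share of 21.3 percentage points, which mirrors *Cdh3*, was 20.6 without division by length and on recovered reads. No paired analysis was possible because the groups share a single replicate number. Luminal depth limits *Snai1*, *Snai2*, *Twist1*, *Twist2*, *Cdh2* and *Cdh3*, each at no more than 8 luminal reads per library.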
